A study of Mus musculus with 12 samples.

Results

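The response of integrin beta 3 wild-type 4T1 cells to docetaxel was measured by comparing 3 docetaxel libraries with 3 DMSO libraries, which are 6 of the 12 RNA-seq libraries of the study. 4T1 is a mouse mammary carcinoma line of BALB/c origin that the labels call triple-negative. Cells growing on dishes coated with poly-L-lysine received 10 nM docetaxel or the vehicle DMSO for 24 h, and were harvested after a further 48 h without drug. The other 6 libraries come from a line labelled integrin beta 3 knockout that went through the same 2 treatments, and they enter the shared estimate of spread and the comparison of the lines at the end. All 40406 rows of the count table were members once 351 exact duplicates (same symbol, same 12 counts) were dropped. The labels describe each group as a biological triplicate, so the p-values measure the spread between these cultures of a single line. They do not say whether the knockout-labelled line was a single clone, and cultured cells carry no stroma or immune cells of a tumor.

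Docetaxel is a taxane that binds beta-tubulin inside the microtubule, stabilizes the polymer and blocks the dynamics the mitotic spindle needs. Cells exposed to it stall in mitosis, and many leave mitosis without dividing and continue with several nuclei or an abnormal chromosome content. Micronuclei and misplaced DNA can be seen by cytosolic sensors that feed the interferon and NF-kB pathways, and taxanes are used to treat breast cancers that lack hormone receptors and HER2.

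Library totals were 28729118 to 32317697 counts in the DMSO group and 32978735 to 35906714 in the docetaxel group, with 19840 to 20606 and 21031 to 21706 genes detected. The first principal component of the 6 libraries separated the treatments and held 51.3% of the variance. No 2 libraries of a group agreed within sampling noise (chi-square per degree of freedom 17.8 to 155). DMSO library 1 is wild-type by title and genotype, but its free-text description mentions the knockout. Itgb3 was counted at 60.1 to 71.4 CPM (counts scaled to a fixed library size) in the wild-type DMSO libraries and at 62.4 to 66.7 CPM in the knockout-labelled DMSO libraries, which overlap, so the transcript does not check that label. After docetaxel Itgb3 was at 79.98 to 88.7 CPM in the wild-type and 59.3 to 64.6 CPM in the knockout-labelled libraries, which do not overlap, and the difference between the lines in the response did not pass the test (adjusted p = 0.294). The short noncoding gene Gm23935 took 1.62%, 3.98% and 0.435% of counts in DMSO libraries 1, 2 and 3 and 0.192% to 0.220% in the docetaxel libraries. Epithelial markers such as Epcam, Krt8 and Cdh1 were abundant, with marker sums of 3696 to 4852 CPM under DMSO and 3478 to 4265 CPM after docetaxel. Of the receptors absent in triple-negative tumors, the progesterone receptor Pgr stayed under 1 CPM, whereas Esr1 (44.2 ± 6.76 to 28.1 ± 2.63 CPM) and Erbb2 (121 ± 19.1 to 82.6 ± 7.53 CPM) were detected and fell. Of 15 macrophage and neutrophil markers, 12 had means under 1 CPM in both groups, among them Ptprc, Itgam and Adgre1, and Elane and Tyrobp were at 0 in all 6 libraries. The sum of those 15 markers was 34.3 to 52.4 CPM under DMSO and 53.5 to 64.7 CPM after docetaxel, and Cd68 and Cd14 made up most of it. Of 14 lymphocyte markers 11 had means under 1 CPM, and 5 were at 0 in all 6 libraries. The remaining lymphocyte markers, Cd3e, Trac and Lck, were at 0.995 to 2.54 CPM. Means were also under 1 CPM for 9 of 10 endothelial and all 7 adipocyte markers.

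Docetaxel changed the level of 4406 of 15538 tested genes in wild-type cells, 28.4% of them (edgeR quasi-likelihood F-test, Benjamini-Hochberg adjustment over all tested genes, threshold 0.05). The test ran on the counts of all 12 libraries, and every adjusted p below comes from it. Of these genes, 2259 rose (14.5% of those tested) and 2147 fell (13.8%). The changes were mostly small: 579 of the rises and 234 of the falls reached 2-fold, and 857 rises and 974 falls had a log2 fold change between 0.25 and 0.5 in size. Levels in the 3 docetaxel libraries did not overlap those in the 3 DMSO libraries for 6288 genes (40.5%), and 4239 genes were both called and free of overlap. Both counts were lower when a wild-type docetaxel library was left out. Without library 1, 1623 genes rose and 1412 fell. Without library 2 the counts were 1789 and 1762, and without library 3 they were 1574 and 1472. The median log2 fold change over all tested genes was 0.02.

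The direction of change depended on how abundant a gene was. Among the 3196 tested genes under 1 CPM, 287 rose and 53 fell, while 1236 rose and 1240 fell among the 6908 genes at 10 to 100 CPM. Among the 69 genes at 1000 CPM or more, 3 rose and 35 fell, with a median log2 fold change of -0.36. The rising genes together gained 45856 CPM of mean level and the falling genes lost 100004 CPM, a sum that includes Gm23935. CPM is not corrected for gene length, so these classes order counts and not molecules. Of 12577 protein-coding genes tested, 2135 rose and 1949 fell. Of 118 small nucleolar RNA genes, which guide the modification of ribosomal RNA, 10 rose and none fell in edgeR's test (0 at an unadjusted p under 0.05, and 0 by DESeq2). Falls outnumbered rises among 1458 pseudogenes, with 132 against 49. Protein-coding genes that rose spanned a median of 19266 bases of genome from first to last exon, those that fell 27076 bases and those not called 23258 bases.

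**Figure D1:**
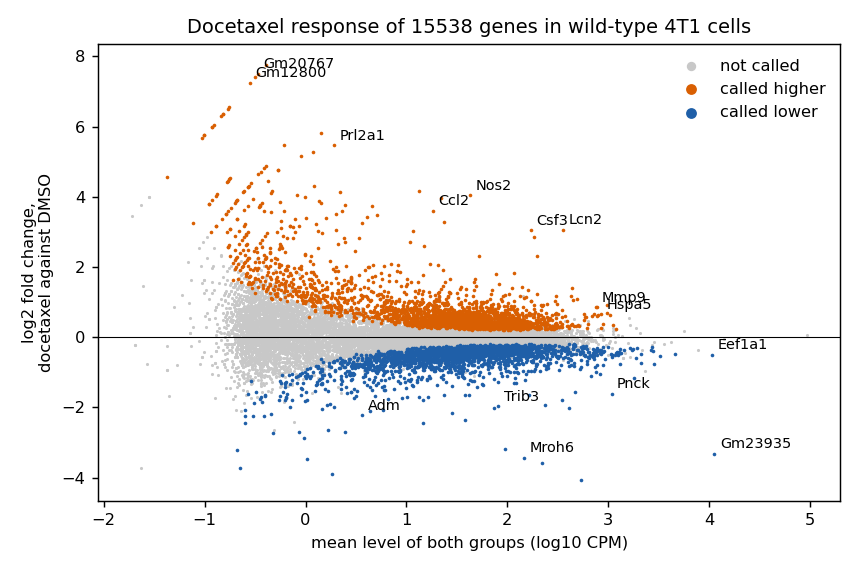
Each point is 1 of 15538 genes tested in wild-type cells, with the mean level of the DMSO and docetaxel groups on the x axis (log10 CPM) and the log2 fold change of docetaxel against DMSO on the y axis; orange genes were called higher and blue genes called lower at an adjusted p under 0.05. Rises of 8-fold or more sit mostly at low levels, and the most abundant genes, such as Eef1a1, lie below 0.

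Inflammatory mediators were among the largest rises of genes at 5 CPM or more. Nos2, the inducible nitric oxide synthase, was at 3.72, 6.88 and 3.85 CPM in the DMSO libraries and at 50.7, 105 and 84.4 CPM in the docetaxel libraries (16.6-fold higher, log2 fold change 4.05 ± 0.33 (SE), adjusted p = 3.88e-06). Acod1, which makes itaconate, went from 1.11, 1.89 and 1.22 CPM to 19.5, 28.9 and 27.8 CPM (log2 fold change 4.17 ± 0.24 (SE), adjusted p = 1.59e-07). For both enzymes every docetaxel library lay several-fold above every DMSO library. Ccl2, a chemokine that attracts monocytes, was at 1.53, 4.06 and 2.74 CPM under DMSO and 28.4, 35.2 and 37.6 CPM after docetaxel (log2 fold change 3.60 ± 0.23 (SE), adjusted p = 4.57e-07). Il1a, a cytokine released by damaged epithelial cells, was at 4.41, 4.54 and 4.22 CPM and 41.5, 41.1 and 46.3 CPM (log2 fold change 3.29 ± 0.16 (SE), adjusted p = 2.5e-08). Csf3, which encodes granulocyte colony-stimulating factor, was at 40.8, 37.4 and 33.6 CPM and 286, 312 and 323 CPM (log2 fold change 3.04 ± 0.11 (SE), adjusted p = 1.55e-09). None of these 3 secreted factors overlapped between the groups. In bulk RNA, more expressing cells and more RNA per cell cannot be told apart.

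Of the enzymes of nitric oxide, itaconate and prostaglandin synthesis, 9 rose and 1 fell among 18 tested. Gch1, which makes the tetrahydrobiopterin cofactor of nitric oxide synthases, rose from 3.89 ± 1.201 to 11.9 ± 1.26 CPM. Ptgs2, the inducible cyclooxygenase, rose from 309 ± 38.1 to 659 ± 63.04 CPM (log2 fold change 1.09 ± 0.13 (SE), adjusted p = 9.26e-05), and Ptges, the inducible prostaglandin E synthase, fell from 82.9 ± 2.16 to 60.3 ± 9.22 CPM. The enzyme pair of prostaglandin E2 synthesis thus moved in opposite directions. Ptgs2os, the noncoding gene beside Ptgs2 on the other strand, also rose (log2 fold change 0.80 ± 0.21), and with the strand setting of the counting not given its reads may not be separable from those of Ptgs2.

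Among interleukin-1 family genes and receptors, 6 rose and 2 fell among 15 tested. Il18rap, a subunit of the interleukin-18 receptor, rose from 11.7 ± 3.03 to 26.97 ± 1.63 CPM. The signalling receptor Il1r1 fell from 31.96 ± 3.28 to 17.6 ± 0.833 CPM (log2 fold change -0.86 ± 0.12), so ligand Il1a and its receptor moved in opposite directions. Of the colony-stimulating factor list 3 of 11 rose (27.3% called, near the 28.4% over all genes). Csf1, the macrophage growth factor, rose from 128 ± 10.9 to 239.6 ± 33.2 CPM (log2 fold change 0.91 ± 0.11 (SE), adjusted p = 6.29e-05). Csf2, which encodes the granulocyte-macrophage factor, rose from a low level, with 0.104, 0.138 and 0.101 CPM under DMSO and 2.51, 1.88 and 2.62 CPM after docetaxel. Among interleukin-6 family and STAT3 genes 6 rose and 4 fell of 21, with Lif up from 69.1 ± 9.93 to 127 ± 5.39 CPM and the receptor chain Il6ra down from 31.96 ± 5.16 to 18.6 ± 1.69 CPM.

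NF-kB is the transcription factor family that drives many of these cytokines, and its inhibitors are themselves among its targets. Of the NF-kB subunits and feedback inhibitors, 14 rose and 1 fell among 26 tested, with a median log2 fold change of 0.30. Nfkbiz, a nuclear co-activator of secondary NF-kB targets, was at 38.3, 39.4 and 41.98 CPM under DMSO and 91.3, 111 and 101 CPM after docetaxel (log2 fold change 1.34 ± 0.10 (SE), adjusted p = 1.96e-06). Zc3h12a, a ribonuclease that degrades cytokine mRNAs, rose from 19.00 ± 2.08 to 51.02 ± 5.11 CPM. Nfkbia, the classical IkB inhibitor, rose from 76.4 ± 14.9 to 121 ± 25.03 CPM, and Nfkbib from 18.1 ± 2.13 to 28.8 ± 3.44 CPM. The deubiquitinase Cyld was the member that fell, from 82.2 ± 10.97 to 62.8 ± 3.92 CPM. Of TNF superfamily ligands and receptors, 12 rose and 1 fell among 22 tested. The death ligand Tnfsf10 rose from 2.53 ± 0.632 to 6.32 ± 0.376 CPM and the death receptor Fas from 5.49 ± 1.17 to 13.3 ± 0.852 CPM. Tnf itself rose from almost nothing to about 1 CPM (log2 fold change 3.59 ± 0.62). It was at 0, 0.206 and 0.0675 CPM under DMSO and 0.847, 1.07 and 1.51 CPM after docetaxel.

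**Figure D2:**
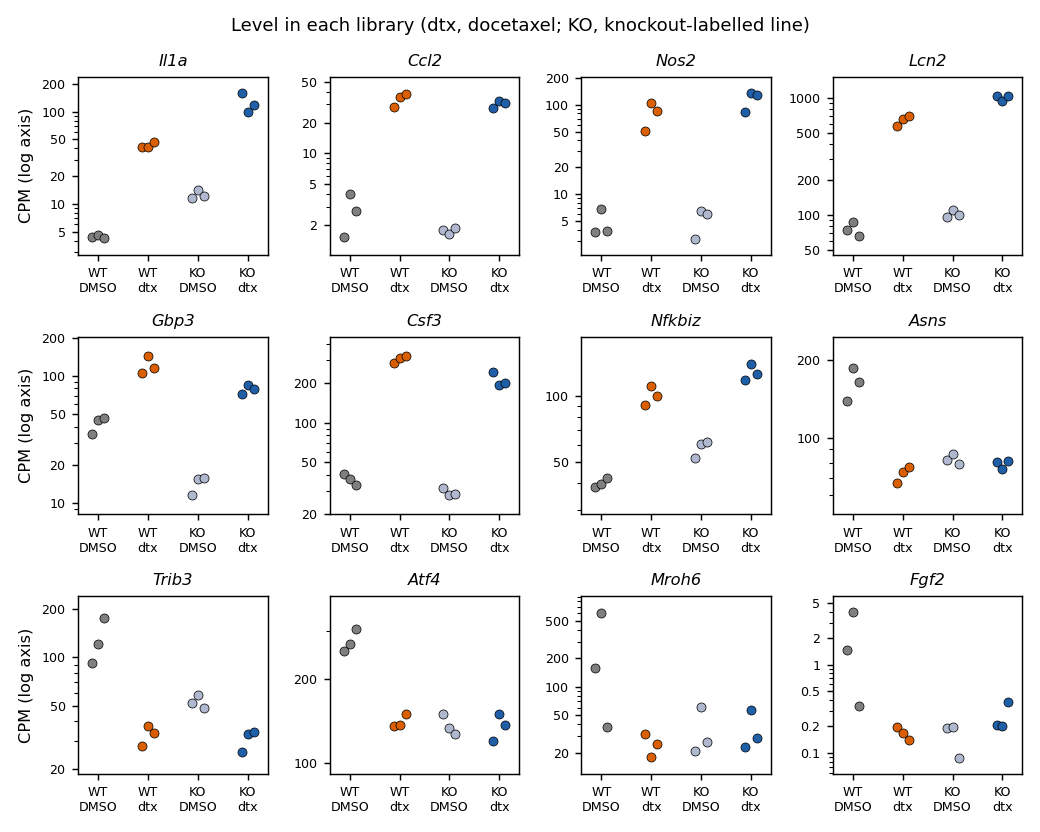
Each panel shows 1 gene, with its level in CPM on a log axis in the 3 libraries of each group: wild-type DMSO, wild-type docetaxel, knockout-labelled DMSO and knockout-labelled docetaxel. Il1a, Ccl2, Nos2, Lcn2, Csf3, Gbp3 and Nfkbiz lie higher in every wild-type docetaxel library, Asns, Trib3 and Atf4 lie lower, and Mroh6 and Fgf2 spread widely over the 3 wild-type DMSO libraries.

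Secreted defence proteins rose together: 13 of 17 tested members of that list rose and none fell in edgeR's test (1 at an unadjusted p under 0.05, and 0 by DESeq2), with a median log2 fold change of 1.01 beside 0.02 over all genes. Another 15 of its 32 genes stayed under the filter on low counts. Members almost uncounted under DMSO, such as S100a8, Saa3 and Hp, passed that filter through the docetaxel libraries. They could hardly be called lower, so the share of rises and the median are partly built in. The same limit applies to such members of other lists. Lcn2, the siderophore-binding lipocalin, was at 74.8, 87.8 and 65.8 CPM under DMSO and 570.0, 655 and 691 CPM after docetaxel (8.39-fold higher, log2 fold change 3.07 ± 0.12 (SE), adjusted p = 2.14e-09). Its levels in the groups were far apart, with every docetaxel library above every DMSO library. Chil1, a chitinase-like secreted protein, was at 2.82, 3.34 and 1.82 CPM and 38.8, 41.9 and 44.03 CPM (log2 fold change 3.97 ± 0.17 (SE), adjusted p = 5.6e-09). Ltf, the iron-binding lactoferrin, was at 3.79, 1.79 and 2.06 CPM and 20.3, 21.6 and 20.7 CPM (log2 fold change 3.04 ± 0.19 (SE), adjusted p = 4.57e-07). The acute-phase genes Saa3 (0.04503 to 1.75 CPM) and Hp (0.0348 to 1.04 CPM) and the calprotectin subunit S100a8 (0 to 0.811 CPM) rose from almost nothing to about 1 CPM. Cd14, a co-receptor for lipopolysaccharide that macrophages also express, rose from 16.6 ± 1.24 to 33.4 ± 2.26 CPM. The macrophage and neutrophil marker sum given above moved with these genes, while 12 of its 15 markers had means under 1 CPM in both groups.

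Complement genes followed, with 7 rises and 1 fall among 14 tested. C3, the central component, was at 192, 275 and 389 CPM under DMSO and 461, 713 and 626 CPM after docetaxel (log2 fold change 1.07 ± 0.23 (SE), adjusted p = 0.0035). Clu, the secreted chaperone clusterin, rose from 247 ± 47.1 to 388 ± 27.3 CPM, and Masp1, a lectin-pathway protease, fell from 29.5 ± 6.74 to 15.3 ± 2.61 CPM. In the Ly6 family and mammary progenitor list, 10 of 15 rose. Ly6a, the surface protein Sca-1, rose from 17.2 ± 4.76 to 86.5 ± 26.3 CPM (log2 fold change 2.33 ± 0.24 (SE), adjusted p = 2.74e-05), and Ly6e was at 188, 283 and 250.4 CPM and 571, 701 and 629.7 CPM (log2 fold change 1.4 ± 0.16 (SE), adjusted p = 5.18e-05). Both are interferon-responsive surface proteins, and neither overlapped between the groups. Reads of the near-identical copies Ly6c1 and Ly6c2 may be shared, so each one's own change is uncertain. Among plasminogen activators and serpins 10 rose and 1 fell among 18 tested. Serpine2, an inhibitor of thrombin and urokinase, rose from 3.196 ± 0.724 to 13.3 ± 1.48 CPM and Plaur, the urokinase receptor, from 37.4 ± 6.82 to 57.5 ± 1.54 CPM.

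Interferon-induced guanosine triphosphatases formed the list with the highest share of rises among those with at least 12 tested members and a difference of at least 25 percentage points between rises and falls: 17 of 19 rose and none fell in edgeR's test (0 at an unadjusted p under 0.05, and 0 by DESeq2), with a median log2 fold change of 0.97. These proteins attack membranes around intracellular pathogens. Their summed level was 458 ± 92.3 CPM under DMSO and 865 ± 129.8 CPM after docetaxel (SD, n = 3). Gbp3 was at 34.7, 45.5 and 46.6 CPM in the DMSO libraries and 105, 144 and 115 CPM in the docetaxel libraries (log2 fold change 1.52 ± 0.15 (SE), adjusted p = 1.4e-05). Mx1, which blocks influenza-type viruses, was at 4.59, 9.36 and 6.89 CPM and 15.6, 20.99 and 15.8 CPM (log2 fold change 1.33 ± 0.23 (SE), adjusted p = 0.00086). The groups did not overlap for either gene. Some members are near-identical copies, such as Tgtp1 with Tgtp2, whose reads the counting may have split.

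Sensors of misplaced nucleic acid rose as well, with 14 rises and 2 falls of 28. Zbp1, which binds Z-form nucleic acid and can start necroptosis, was at 17.8, 31.2 and 28.03 CPM and 57.2, 82.7 and 73.1 CPM (log2 fold change 1.47 ± 0.23 (SE), adjusted p = 0.000466). Cgas, the DNA sensor that recognizes micronuclei, rose from 15.5 ± 3.51 to 22.3 ± 1.43 CPM and the RNA sensor Ifih1 from 92.3 ± 10.2 to 129 ± 5.51 CPM. Irf7, the factor that amplifies interferon transcription, rose from 96.3 ± 26.5 to 213 ± 48.5 CPM. Of the IRF, STAT and interferon receptor list 6 rose and 2 fell among 22 tested, among them Stat2 (89.7 ± 11.4 to 137 ± 19.7 CPM) and Usp18 (58.1 ± 13.5 to 108 ± 16.3 CPM), a brake on interferon receptor signalling. Lgals9, a galectin that binds the T cell receptor TIM-3, rose from 154 ± 37.5 to 245 ± 27.7 CPM, and Cd274, which encodes PD-L1, from 5.001 ± 1.18 to 8.598 ± 0.462 CPM. In the inflammasome and necroptosis list 6 of 15 rose, including Casp4 at 1.24, 0.899 and 0.995 CPM after docetaxel against 0.0695, 0.0688 and 0.0675 CPM.

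The promoters of Gbp3 and Lgals9 are shown because both rose and because they hold the interferon-stimulated response element, the site of the interferon-activated STAT and IRF complex. The sequences run from 100 bases before to 30 bases from the RefSeq transcription start in the GRCm38.p6 assembly, 5′ to 3′ on the gene's strand, and capitals mark each match to the element, read on both strands. The letters of the element are GAAA and GAAA with any 2 bases between them, and 3.44% of 32851 RefSeq promoter windows of the table, each 250 bases before to 50 after a start, hold it. Gbp3 has 2 overlapping matches, starting 45 and 39 bases before the start site, and Lgals9 has matches starting 55 bases before and at base 16 from it. A match is a description of the letters, and binding was not measured.
Gbp3, chr3:142559944-142560073, plus strand: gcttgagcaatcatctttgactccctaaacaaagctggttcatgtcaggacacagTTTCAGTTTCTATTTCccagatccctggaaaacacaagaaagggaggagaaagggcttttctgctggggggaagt
Lgals9, chr11:78984895-78985024, minus strand: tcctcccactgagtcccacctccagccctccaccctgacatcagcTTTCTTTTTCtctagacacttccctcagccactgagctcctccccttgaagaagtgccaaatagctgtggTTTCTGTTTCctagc

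**Figure D3:**
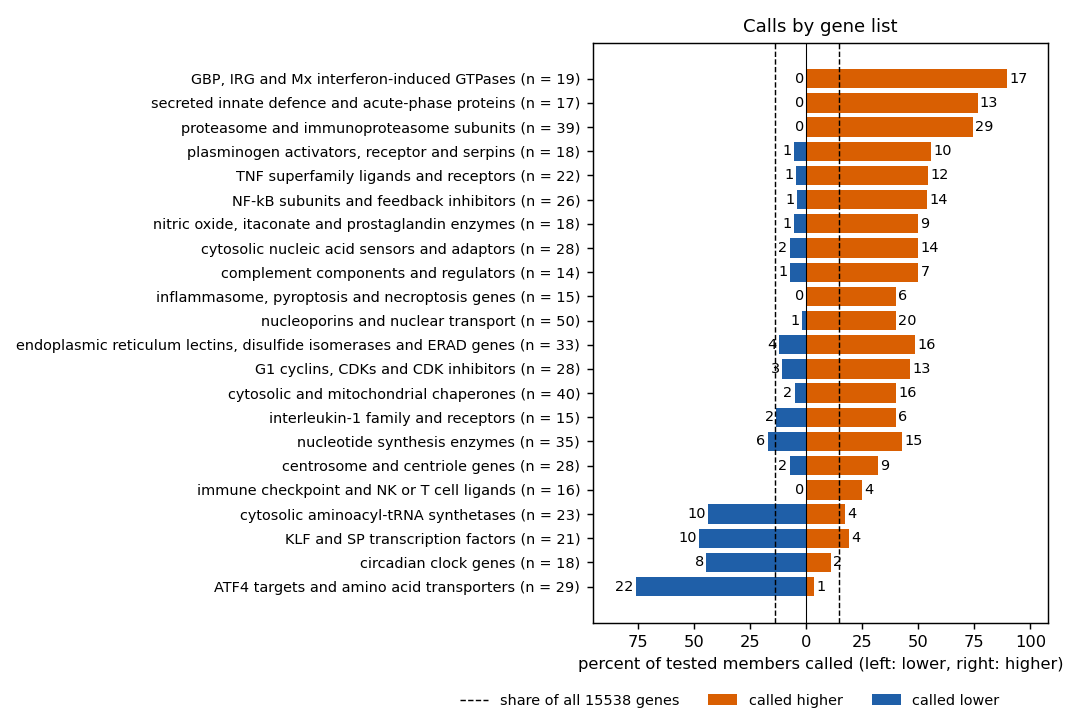
Bars show the percent of tested members of each gene list that rose (orange, right) or fell (blue, left) after docetaxel. Drawn are 22 lists with at least 12 tested members and a difference of at least 25 percentage points between both shares. The Ly6 family and mammary progenitor list (10 rises and 1 fall of 15) meets the same conditions and was not drawn. Numbers at the bars are genes and n is the number tested. Dashed lines mark the shares over all 15538 genes, 14.5% higher and 13.8% lower, and the interferon-induced GTPases (17 of 19) and the ATF4 targets (22 of 29) are the outermost lists.

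Genes of protein quality control rose by small amounts in many members. The proteasome degrades ubiquitin-tagged proteins, and 29 of its 39 tested subunits rose with none falling in edgeR's test (0 at an unadjusted p under 0.05, and 0 by DESeq2), against a background of 14.5%. The summed level of the subunits was 3645 ± 282 CPM under DMSO and 4835 ± 221 CPM after docetaxel, a median log2 fold change of 0.44. Psmd1, a scaffold of the regulatory particle, was at 96.95, 73.3 and 73.04 CPM and 146, 145 and 146 CPM (log2 fold change 0.85 ± 0.11 (SE), adjusted p = 0.000138). Psmc4, an ATPase of the same particle, rose from 35.05 ± 5.27 to 61.99 ± 1.59 CPM, and Psmb8, an interferon-inducible immunoproteasome subunit, from 23.3 ± 7.12 to 46.5 ± 11.4 CPM. Psmb3, a constitutive core subunit, rose from 70.5 ± 10.4 to 120.5 ± 3.27 CPM.

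Of the endoplasmic reticulum folding and degradation genes, 16 rose and 4 fell among 33 tested. Calr, the lectin chaperone calreticulin, was at 288, 242 and 264 CPM under DMSO and 607, 596 and 578 CPM after docetaxel (log2 fold change 1.17 ± 0.09 (SE), adjusted p = 1.62e-06). Hyou1 rose from 112 ± 11.5 to 229.7 ± 4.76 CPM, its partner chaperone Hspa5, known as BiP, from 658 ± 99.3 to 1036 ± 76.2 CPM, and Dnajb11, a co-chaperone of BiP, from 20.6 ± 6.12 to 44.8 ± 1.84 CPM. Some genes linked to stress in this compartment went down. Xbp1, the unfolded protein response factor, fell from 87.7 ± 19.3 to 67.2 ± 0.896 CPM and Herpud1, a degradation adaptor, from 47.04 ± 2.702 to 32.7 ± 3.26 CPM. Of cytosolic and mitochondrial chaperones, 16 rose and 2 fell among 40 tested, with Hsp90aa1 up from 809 ± 165 to 1247 ± 17.8 CPM and the stress-inducible Hspa1b from 50.8 ± 13.6 to 84.5 ± 4.65 CPM. Nucleoporins and nuclear transport factors gave 20 rises and 1 fall of 50. Nup93, a scaffold nucleoporin, was at 39.8, 22.2 and 21.1 CPM and 66.6, 60.3 and 61.8 CPM (log2 fold change 1.18 ± 0.19 (SE), adjusted p = 0.000585), and Rangap1, the GTPase activator that gives transport its direction, rose from 80.6 ± 20.2 to 149 ± 11.1 CPM.

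Of the G1 cyclins, kinases and inhibitors, which govern the entry into S phase, 13 rose and 3 fell among 28 tested. Ccne1, which encodes cyclin E1, was at 3.48, 2.13 and 2.499 CPM under DMSO and 12.4, 11.01 and 10.8 CPM after docetaxel (log2 fold change 2.08 ± 0.18 (SE), adjusted p = 5.63e-06). Every docetaxel library exceeded every DMSO library. Ccnd1 rose from 277 ± 72.9 to 416 ± 12.6 CPM and Ccnd3 from 42.4 ± 5.95 to 71.8 ± 0.195 CPM, both D-type cyclins, and E2f1 from 34.1 ± 4.47 to 50.2 ± 3.72 CPM. The inhibitor Cdkn1b, p27, fell from 155 ± 19.4 to 97.2 ± 6.89 CPM. Nucleotide synthesis enzymes gave 15 rises and 6 falls of 35. Rrm2, the cell-cycle-regulated subunit of ribonucleotide reductase, was at 85.8, 48.8 and 36.9 CPM and 143, 121 and 132 CPM (log2 fold change 1.21 ± 0.22 (SE), adjusted p = 0.00159), while its alternative subunit Rrm2b fell from 34.4 ± 3.47 to 27.02 ± 1.32 CPM. Cmpk2, a mitochondrial nucleotide kinase that interferon induces, rose from 60.6 ± 5.702 to 159.5 ± 25.6 CPM. Of 57 DNA repair genes 11 rose and 7 fell, near the background shares, and Fanca (from 15.9 ± 6.72 to 35.2 ± 1.22 CPM) and Exo1 (from 16.3 ± 4.42 to 32.1 ± 2.37 CPM) were among the rises.

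Mitotic motors and microtubule-associated proteins, which work on the structures docetaxel acts on, were called at shares under the background of 28.4%. Centrosome genes were called at a share above it, and neither difference was tested. Of 18 mitotic kinesins and spindle motors 2 rose and 2 fell (22.2% called), and of 37 microtubule-associated and tip proteins 3 rose and 3 fell (16.2%). Mapt, the microtubule-binding protein tau, fell from 7.25 ± 1.44 to 3.98 ± 0.476 CPM. Centrosome genes gave 9 rises and 2 falls of 28 (39.3% called). Among the rises were Tubg1 (gamma-tubulin, 36.8 ± 4.58 to 53.2 ± 4.08 CPM) and Tubgcp6 (16.9 ± 3.24 to 27.1 ± 0.961 CPM). Abcb1b, a drug efflux pump for taxanes, rose from 18.8 ± 1.38 to 26.2 ± 0.879 CPM (log2 fold change 0.47 ± 0.10 (SE), adjusted p = 0.00455). Abcc3, an exporter of organic anions, fell from 107 ± 13.7 to 59.8 ± 4.38 CPM.

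Among 31 tested p53 target genes, 5 rose and 9 fell. Aen, a p53-induced nuclease, was at 8.38, 4.47 and 6.69 CPM and 19.96, 17.6 and 21.1 CPM (log2 fold change 1.59 ± 0.20 (SE), adjusted p = 0.000104) and Tigar, a regulator of glycolysis, rose from 3.61 ± 0.5903 to 8.19 ± 0.547 CPM, whereas Sesn2 fell from 13.97 ± 1.94 to 8.67 ± 1.91 CPM and Perp, a junction protein of apoptosis, from 272 ± 52.4 to 183 ± 6.32 CPM. Targets of this factor moved both ways, with a median of 0.08 on the log2 scale. In the BCL2 family 6 rose and 5 fell of 19. The death agonist Bid rose from 32.8 ± 3.03 to 58.5 ± 2.54 CPM and the effector Bak1 from 53.2 ± 2.31 to 81.3 ± 7.22 CPM. Bmf, which responds to cytoskeletal damage, fell from 37.3 ± 8.700 to 23.7 ± 4.800 CPM, and Bnip3, a mitophagy receptor induced by low oxygen, from 72.3 ± 14.02 to 26.8 ± 6.19 CPM. Cycs, cytochrome c, rose from 18.7 ± 7.31 to 48.4 ± 1.17 CPM (log2 fold change 1.38 ± 0.20 (SE), adjusted p = 0.000263). Of 28 caspases and inhibitors of apoptosis 4 rose and 3 fell (25% called, under the 28.4% over all genes).

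A fall shared by most members was seen in targets of ATF4, the transcription factor that the integrated stress response and amino acid shortage call on to raise amino acid uptake and synthesis. Of 29 tested members 22 fell and 1 rose, with a median log2 fold change of -0.79, and 9 of the falls reached 2-fold. The summed level was 3774 ± 261 CPM under DMSO and 2383 ± 98.8 CPM after docetaxel. Atf4 itself was at 253, 269.6 and 305 CPM under DMSO and 135, 136 and 149.6 CPM after docetaxel (log2 fold change -0.97 ± 0.10 (SE), adjusted p = 2.77e-05). Trib3, a pseudokinase that ATF4 induces, was at 91.8, 121 and 175 CPM and 27.98, 37.3 and 33.8 CPM (log2 fold change -1.97 ± 0.20 (SE), adjusted p = 1.81e-05). Asns, asparagine synthetase, was at 138, 187 and 165 CPM and 66.5, 73.4 and 76.6 CPM (log2 fold change -1.18 ± 0.10 (SE), adjusted p = 5.63e-06). The DMSO libraries were the high ones for all 3 genes, with no overlap. Ddit3 (CHOP) fell from 28.5 ± 17.3 to 11.2 ± 1.497 CPM, Atf5 from 63.9 ± 38.8 to 20.3 ± 3.02 CPM, the leucine transporter Slc7a5 from 312 ± 21.5 to 167 ± 8.36 CPM and the neutral amino acid transporter Slc1a4 from 56.9 ± 5.72 to 27.99 ± 2.202 CPM. Atf3 was the member that rose, from 11.3 ± 1.77 to 21.04 ± 1.41 CPM.

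Neighbouring steps moved the same way in part. Of the enzymes of serine, proline and folate-dependent carbon metabolism 6 rose and 7 fell among 24 tested. Pycr1 and Aldh18a1, both of proline synthesis, were lower after docetaxel (15.4 ± 2.97 to 4.72 ± 1.07 CPM for the former, 141 ± 17.1 to 70.8 ± 3.38 CPM for the latter), and Psat1, of serine synthesis, fell from 242 ± 17.7 to 141 ± 3.697 CPM. Mat2a, which makes S-adenosylmethionine, rose from 55.7 ± 13.4 to 117 ± 19.9 CPM, and Tyms, thymidylate synthase, from 26.6 ± 9.32 to 42.2 ± 2.42 CPM. Of the 23 cytosolic aminoacyl-tRNA synthetases and partners, which charge tRNAs, 10 fell and 4 rose. Sars fell from 292 ± 75.3 to 188 ± 23.7 CPM and Iars from 321 ± 12.4 to 209 ± 14.3 CPM, while Wars, an interferon-inducible member, rose from 54.5 ± 5.63 to 79.3 ± 4.02 CPM and Farsa from 47.7 ± 9.89 to 71.9 ± 3.500 CPM.

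The C/EBP-ATF response element, a composite site read by ATF4 with a C/EBP partner, was searched in the promoters of this list because its members fell together. Its letters are TGATGNAA, where N is any base, on either strand. Of 29 tested members, 24 (82.8%) had a RefSeq promoter, and 9 of their 30 promoters held the element (30%, 95% exact binomial interval 14.7 to 49.4), against 3.97% of all 32851. The interval treats the 30 promoters as independent, although some of the 24 genes have several. No test was made of the difference between the shares, and the list was drawn from known targets of the factor. The promoters of Asns, Slc1a4 and Trib3 are shown with the element in capitals, in the same window and assembly as above. It starts 23 bases before the start site in Asns, 4 before it in Slc1a4 and at base 15 from it in Trib3.
Asns, chr6:7693180-7693309, minus strand: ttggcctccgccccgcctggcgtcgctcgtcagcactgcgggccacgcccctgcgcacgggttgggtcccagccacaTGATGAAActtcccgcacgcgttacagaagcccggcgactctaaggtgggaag
Slc1a4, chr11:20332684-20332813, minus strand: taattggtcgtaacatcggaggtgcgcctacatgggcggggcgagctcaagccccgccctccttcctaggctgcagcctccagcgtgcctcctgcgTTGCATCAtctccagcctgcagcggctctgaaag
Trib3, chr2:152344031-152344160, minus strand: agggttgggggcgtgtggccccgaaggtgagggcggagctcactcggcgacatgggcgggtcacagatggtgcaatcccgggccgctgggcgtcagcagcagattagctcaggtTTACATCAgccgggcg

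Some of the largest fold rises were in genes that are otherwise read in the 2-cell mouse embryo. Others were in genes of other functions, such as S100a8, Steap4 and Csf2. Of all 109 genes of either kind that rose 8-fold or more, 77 were under 0.1 CPM in the DMSO libraries and 16 were at 0 there. A list of 2-cell-stage embryo genes was drawn up after these values were seen, from the Zscan4, Usp17l, Tcstv and related families, so its counts describe it and support nothing. The list held 37 genes of the table, 23 of which passed the filter on low counts, and 23 of those rose. Genes pass that filter only with counts in at least 1 group, which for these genes was the docetaxel group of either line, so the share called among them could hardly be low. Summed over all 37 genes, the DMSO libraries held 53, 50 and 55 counts and the docetaxel libraries 973, 669 and 694. In CPM this was 1.84, 1.72 and 1.86 against 27.5, 18.8 and 19.7, with no overlap.

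Zscan4 proteins are zinc finger factors that mark the 2-cell state, and Zscan4b had 0, 2 and 0 counts under DMSO and 20, 12 and 17 after docetaxel. Zscan4d had no count in the DMSO libraries and 16, 5 and 7 after docetaxel (at least 7.69-fold higher against a floor of 3 counts over the 3 DMSO libraries). Tcstv1 had none and 34, 22 and 11 (at least 18.4-fold higher against the same floor), a gene named for the 2-cell stage. Zfp352, a zinc finger gene of the early embryo, had 0, 0 and 2 counts and 36, 14 and 5. The ubiquitin protease Usp17le had 2, 2 and 4 counts under DMSO and 60, 62 and 44 after docetaxel. Of the 37 genes, 19 had no count in any DMSO library, and 18 of these were counted after docetaxel. Duxf3, the Dux gene whose product can switch this set on, had no count under DMSO and 0, 0 and 5 after docetaxel, which is near the floor. These genes lie in families of near-identical copies, so reads may be shared among members and a single member's count is uncertain. Low counts were even more often than odd (57.7% of 26971 values of 1 to 4, against 49.7% of 32245 values of 1001 to 10000), so some low counts may be both ends of a read pair and not independent molecules.

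Of 18 genes of pluripotent and primordial germ cells, 3 passed the filter, and none of these was called by edgeR or DESeq2 or had an unadjusted p under 0.05. Pou5f1, the core pluripotency factor, had 1, 0 and 1 counts under DMSO and 0, 2 and 1 after docetaxel. Among the untested genes, Dppa5a, with 1, 0 and 0 counts under DMSO and 4, 9 and 8 after docetaxel, and Esrrb, with none and 1, 2 and 1, did not overlap between the groups. The prolactin-related genes of the placenta, hormones of trophoblast giant cells, showed a rise in a few members. This list too was made after its values were seen. Of 25 genes 8 passed the filter and 6 rose. Their summed counts were 44, 36 and 12 under DMSO and 700, 514 and 566 after docetaxel. Most came from Prl2c3, a proliferin, with 28, 22 and 5 counts and 337, 237 and 317, and from Prl2a1, with 2, 5 and 0 counts and 118, 152 and 126. Prl2c2 and Prl2c3 are near-identical copies. In the knockout-labelled line the same sums were 2.37, 2.703 and 2.64 CPM under DMSO and 35.2, 23.9 and 31.1 CPM after docetaxel for the 2-cell-stage list, and 5.02, 4.56 and 4.64 CPM and 29.6, 17.5 and 21.2 CPM for the prolactins.

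**Figure D4:**
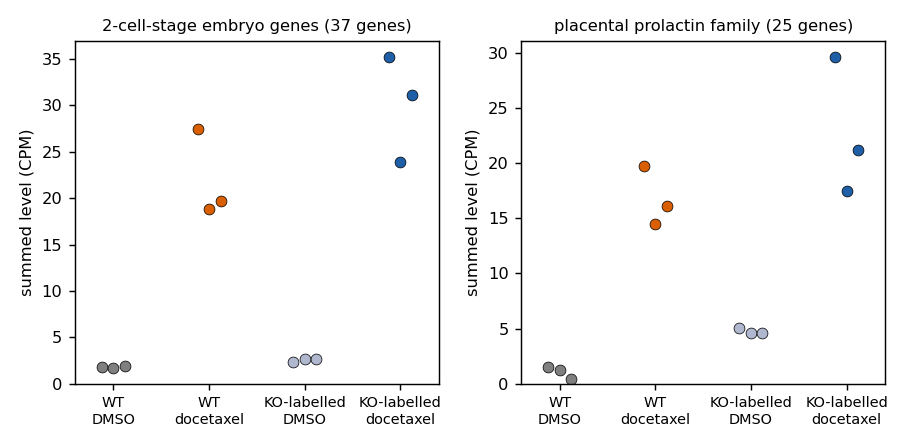
Points are the summed level in CPM of 37 genes of the 2-cell-stage embryo (left) and of 25 placental prolactin genes (right) in each library of the 4 groups, on linear axes from 0. Both sums lie higher in all 3 docetaxel libraries of either line, with 18.8 to 27.5 CPM against 1.72 to 1.86 CPM in wild-type cells for the first list; the lists were drawn up after these values were seen.

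Single protein-coding genes of several functions were among the 10 largest falls of those with at least 5 CPM and no overlap, while Mroh6 and Nnat, which head that order, and Itsn1 are given further on with the spread of their DMSO libraries. Aldoc, an aldolase of glycolysis, was at 97.6, 121 and 136 CPM under DMSO and 21.8, 37.6 and 27.6 CPM after docetaxel (log2 fold change -2.03 ± 0.23 (SE), adjusted p = 5.27e-05). Car9, a carbonic anhydrase that hypoxia induces, was at 6.95, 11.4 and 10.2 CPM and 1.95, 3.48 and 1.31 CPM (log2 fold change -2.08 ± 0.37 (SE), adjusted p = 0.00124). Adm, the vasodilator peptide adrenomedullin, was at 5.25, 5.68 and 7.02 CPM and 1.19, 1.46 and 1.19 CPM (log2 fold change -2.22 ± 0.30 (SE), adjusted p = 0.000166). All 3 were lower in each docetaxel library than in any DMSO library. Galnt15, which starts mucin-type glycosylation, fell from 45.9 ± 17.9 to 10.3 ± 3.84 CPM, and Pla2g7, an enzyme that inactivates platelet-activating factor, from 7.02 ± 0.0881 to 1.64 ± 0.275 CPM. By CPM lost, the microRNA locus Gm23935 led all called genes. Abundant protein-coding genes came next: the elongation factor Eef1a1 fell from 12445 ± 1180.5 to 8802 ± 523 CPM (log2 fold change -0.50 ± 0.09), the glycolytic enzymes Aldoa from 2471 ± 433 to 1109 ± 189 CPM, Gapdh from 2638 ± 389 to 1596 ± 135 CPM and Pkm from 3865 ± 452 to 2666 ± 299 CPM, the nucleolar protein Npm1 from 2254 ± 131 to 1495 ± 82.5 CPM and the giant scaffold protein Ahnak from 3611 ± 35.6 to 2115 ± 206 CPM. By CPM gained, Lcn2, Fasn (fatty acid synthase, 665 ± 278 to 1258 ± 102 CPM), Mmp9 (a gelatinase, 548 ± 123 to 987 ± 53.7 CPM), Ifitm3 (an antiviral membrane protein, 532 ± 109 to 965 ± 25.3 CPM) and B2m (the MHC class I light chain, 752 ± 197 to 1207 ± 62.4 CPM) were among the first 8.

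In the list of KLF and SP transcription factors 10 fell and 4 rose of 21. Klf2 fell from 21.2 ± 7.15 to 13.2 ± 2.78 CPM, Klf9 from 102 ± 10.2 to 75.7 ± 1.19 CPM and Klf10 from 83.9 ± 12.1 to 61.4 ± 2.93 CPM, whereas Klf4 rose from 19.1 ± 4.15 to 33.3 ± 3.14 CPM. The other 3 rises were Sp100, Sp110 and Sp140, which are interferon-induced nuclear body proteins and not SP factors. Of circadian clock genes 8 fell and 2 rose of 18. Dbp, an output factor of the clock, was at 4.94, 7.81 and 9.29 CPM and 1.86, 2.33 and 2.73 CPM (log2 fold change -1.67 ± 0.27 (SE), adjusted p = 0.000647). Clock, a core activator, rose from 43.8 ± 3.704 to 68.98 ± 11.2 CPM and Per3, a repressor, fell from 13.9 ± 2.58 to 8.43 ± 0.981 CPM.

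Epithelial structure genes changed in both directions. Of junction genes 5 rose and 12 fell of 33. The desmosome genes Pkp2 (from 71.4 ± 9.36 to 42.3 ± 6.28 CPM), Dsc2 (from 18.3 ± 3.47 to 10.9 ± 0.941 CPM) and Dsg2 (from 152 ± 17.4 to 108 ± 7.67 CPM) fell, and the claudin Cldn23 rose from 2.78 ± 0.511 to 8.69 ± 1.41 CPM. Keratins gave 5 rises and 4 falls of 13. Krt16 and Krt17, keratins of injured and activated epithelium, were at 8.24, 6.92 and 8.85 CPM and 0.695, 0.757 and 0.608 CPM under DMSO and at 30.3, 35.8 and 34.02 CPM and 5.31, 7.89 and 6.51 CPM after docetaxel. Both rose, with log2 fold changes of 2.06 ± 0.17 and 3.25 ± 0.25 (adjusted p = 3.63e-06 and 2.11e-06). The simple-epithelial Krt19 fell from 214 ± 27.9 to 109 ± 24.7 CPM and the basal Krt15 from 12.4 ± 3.36 to 4.99 ± 0.596 CPM. Vim, the mesenchymal filament protein, also fell, from 543 ± 109 to 314 ± 28.9 CPM, as did Sparc, a matrix glycoprotein, from 164 ± 26.7 to 96.04 ± 14.9 CPM. Of the epithelial-mesenchymal transition list 5 rose and 5 fell of 23.

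Among ephrin, semaphorin and axon guidance genes 14 fell and 6 rose of 37. The Eph receptor Ephb6 was at 36.6, 32.8 and 53.8 CPM and 16.5, 15.96 and 14.6 CPM (log2 fold change -1.39 ± 0.17 (SE), adjusted p = 7.85e-05), and the semaphorins Sema4g and Sema3f also fell (11.7 ± 1.87 to 5.396 ± 1.14 CPM for the former and 158 ± 23.04 to 107 ± 12.4 CPM for the latter). In the Notch list 5 fell and 2 rose of 27 (25.9% called, under the 28.4% over all genes). The receptor Notch3 was at 32.1, 32.9 and 41.1 CPM under DMSO and 11.5, 12.4 and 9.87 CPM after docetaxel (log2 fold change -1.65 ± 0.12 (SE), adjusted p = 1.57e-06), and its ligand Jag1 rose from 28.5 ± 7.78 to 51.4 ± 6.27 CPM. Receptor and ligand thus moved in opposite directions here too. Of growth factor receptors, Erbb3 fell from 134 ± 18.8 to 83.3 ± 5.45 CPM, Met from 167 ± 24.5 to 118 ± 2.13 CPM and the insulin receptor Insr from 217 ± 17.2 to 151 ± 6.74 CPM. The C/EBP factor Cebpd was at 2.36, 2.75 and 3.61 CPM and 15.6, 21.8 and 19.4 CPM (log2 fold change 2.70 ± 0.17 (SE), adjusted p = 4.57e-07), a rise without overlap in a factor of the acute-phase response. Slc11a2, the iron transporter DMT1, rose from 13.1 ± 1.34 to 41.2 ± 2.38 CPM.

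Other lists stood near or under the background of 28.4%. Of 53 respiratory chain subunits encoded in the nucleus, 2 rose and 5 fell. Of 44 lysosome and autophagy genes, 9 rose and 4 fell. Of 33 NRF2 antioxidant targets, 6 rose and 4 fell. Of the latter, Txnrd1, thioredoxin reductase, rose from 129 ± 14.8 to 174 ± 8.81 CPM. Of 32 actin and contractile genes, 3 rose and 3 fell. Of 35 Wnt pathway genes, 6 rose and 4 fell. None of the 15 tested mitochondrially encoded genes was called by edgeR or by DESeq2, with 3 at an unadjusted p under 0.05 by edgeR, and mt-Nd1, a complex I subunit, was at 1286, 1672 and 926 CPM under DMSO and 2348, 1466 and 1915 CPM after docetaxel.

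Of 1218 long noncoding genes tested, 61 rose and 57 fell, under the background shares. AU020206, whose function is not known, was at 8.13, 12.1 and 8.95 CPM under DMSO and 24.8, 23.6 and 22.98 CPM after docetaxel (log2 fold change 1.29 ± 0.13 (SE), adjusted p = 2.01e-05), and 9330159M07Rik rose from 4.097 ± 0.4903 to 8.56 ± 1.67 CPM. Gm14207 fell from 6.76 ± 2.91 to 2.38 ± 0.574 CPM and Gm13375 from 6.64 ± 1.82 to 2.71 ± 0.225 CPM.

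Some of the largest falls rested on a wide spread among the DMSO libraries. Of the 234 genes that fell 2-fold or more, 23 (9.83%) were highest in DMSO library 2, intermediate in library 1 and at least 3-fold lower than library 2 in library 3, the order of the Gm23935 share. Mroh6, whose function is not settled, was at 159, 609 and 37.7 CPM under DMSO and 31.3, 17.95 and 25.03 CPM after docetaxel (log2 fold change -3.44 ± 0.75). Fgf2, basic fibroblast growth factor, was at 1.46, 3.96 and 0.338 CPM and 0.198, 0.169 and 0.142 CPM. Itsn1, an endocytic scaffold, was at 246, 757 and 121 CPM and 102, 96.1 and 96.4 CPM, and Nnat, the imprinted gene neuronatin, at 11.5, 55.9 and 6.08 CPM and 4.69, 4.102 and 4.72 CPM. In each case the docetaxel libraries were close together and the DMSO libraries were not. Of these 23 genes 13 stayed called without DMSO library 2, compared with 191 of the 234. Gm23935, an annotated microRNA locus of 57 bases on chromosome 16 (chr16:11144125-11144181, plus strand, GRCm38), was itself called lower (log2 fold change -3.33 ± 0.63). In the knockout-labelled line 21 of the 23 were higher after docetaxel than under DMSO, where the docetaxel libraries held the larger Gm23935 shares. The part of that library difference in these falls was not tested.

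The response of the wild-type line was set beside that of the knockout-labelled line, which shares the estimate of spread but no library. Of the 2259 genes that rose in wild-type cells, 2140 (94.7%) had a rise in the other line's estimate too, and of the 2147 that fell, 1982 (92.3%) a fall. Median log2 fold changes were 0.59 and 0.35 for the first set and -0.51 and -0.30 for the second, with the wild-type value first; since the sets were chosen on the wild-type values, the larger size there is built in. The difference of the responses itself passed the test for 17 genes (0.109% of 15538), 3 with the higher and 14 with the lower fold change in wild-type cells, while 1714 had an unadjusted p under 0.05. That count moves from 2 to 431 when single libraries are left out, with 431 without wild-type DMSO library 1 and 45 without DMSO library 3.

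Ifi27, an interferon-induced mitochondrial protein, gave the lowest p. It was at 155, 155 and 173 CPM in wild-type DMSO libraries and 137, 144 and 140.4 CPM after docetaxel, and at 73.9, 90.6 and 78.6 CPM and 181, 197 and 185 CPM in the knockout-labelled line. The difference in log2 fold change was -1.40 ± 0.12 (adjusted p = 0.000235), and it was called under all 22 alternatives. The wild-type groups were similar and the other line's docetaxel libraries lay above its DMSO libraries. Lgals9, Sp100, Oas2, an RNA-activated antiviral synthetase, and Nlrc5, the MHC class I transactivator, also had smaller rises in wild-type cells. Oas2 was at 14.4, 27.8 and 27.7 CPM and 59.5, 83.5 and 64.2 CPM in wild-type libraries and at 4.96, 7.23 and 6.29 CPM and 53.8, 65.97 and 67.7 CPM in the others, so the docetaxel libraries of the lines overlapped and the DMSO libraries did not. For the whole GTPase list the sums were 458 ± 92.3 CPM and 865 ± 129.8 CPM in wild-type cells and 189 ± 42.3 CPM and 628 ± 24.3 CPM in the knockout-labelled line.

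Asns, Atf4, Slc7a5 and Slc1a4 fell in wild-type cells with little or no fall in the other line. Asns was at 138, 187 and 165 CPM and 66.5, 73.4 and 76.6 CPM in wild-type DMSO and docetaxel libraries, and at 81.98, 86.1 and 78.7 CPM and 80.7, 75.7 and 80.9 CPM in the knockout-labelled ones (difference -1.12 ± 0.14, adjusted p = 0.00856). Atf4 was at 150.5, 134 and 127 CPM and 119.5, 150.4 and 136 CPM in the knockout-labelled line (difference -0.96 ± 0.14, adjusted p = 0.022). For both genes the wild-type DMSO group was the high one and the other 3 groups lay below it. The sum over the ATF4 list was 3774 ± 261 CPM in wild-type DMSO libraries, 2842 ± 47.6 CPM in knockout-labelled DMSO libraries, and 2383 ± 98.8 CPM and 2369.8 ± 84.6 CPM after docetaxel. Clu, Ltf and Nlrp10, an inflammasome regulator, had the higher fold change in wild-type cells (differences 1.19 ± 0.17, 1.55 ± 0.25 and 1.80 ± 0.30). Ltf rose in both lines (log2 fold change 1.48 in the knockout-labelled one). Clu and Nlrp10 rose in wild-type cells and had log2 fold changes of -0.54 and -0.22 in the knockout-labelled line. The microRNA loci Gm23935, Gm25911, Gm24270 and Gm24245 and the phosphatase inhibitor gene Ppp1r14a fell in wild-type cells. All 5 were highest in DMSO library 2 and lowest in library 3 of the wild-type DMSO group. In the knockout-labelled line their log2 fold changes were 2.46, 3.84, 3.11, 1.26 and 1.35 in that order. There all 5 were highest in docetaxel library 3.

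**Figure D5:**
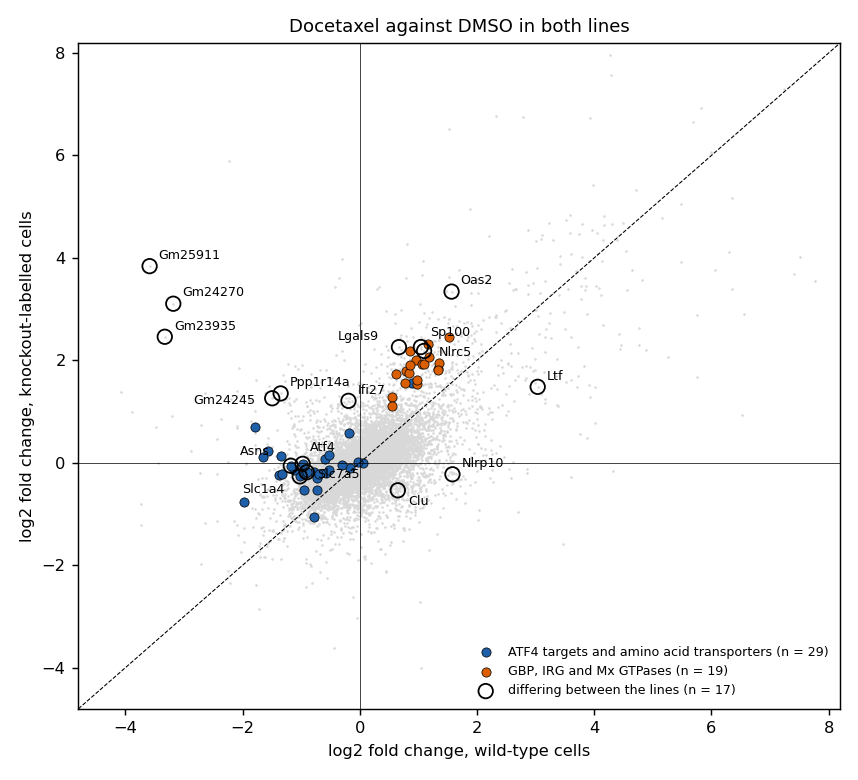
Each point is 1 gene, with the log2 fold change of docetaxel against DMSO in wild-type cells on the x axis and in knockout-labelled cells on the y axis; the dashed line marks equal changes. Interferon-induced GTPases (orange, 19 genes) lie above 0 in both lines, ATF4 targets (blue, 29 genes) lie mostly left of 0 and above the dashed line, closer to 0 in the knockout-labelled line, and circles mark the 17 genes whose response differed between the lines.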

How the data were processed

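RNA was total RNA depleted of ribosomal RNA and read as 150-base pairs, per the labels' protocols. The authors deposited raw gene counts in 1 table; its submitters' processing notes name bcl2fastq, STAR 2.5.1a, Subread and featureCounts 1.4.6-p5. The genome build, annotation and strand setting of the counting are not given in those sources. Symbols were placed on GENCODE M21 (GRCm38) for type and position. Of 40757 rows, 351 repeats were dropped, and 15538 genes passed edgeR's filterByExpr. Counts of all 12 libraries were fitted with edgeR 4.0.16 (TMM scaling, quasi-likelihood test, 4 group means, R 4.3.3); CPM use the TMM-scaled library sizes, SE are derived from the test statistic and n = 3 per group. The threshold was an adjusted p of 0.05, two-sided. DESeq2 1.42.0, other scalings, filters, a replicate block, a GC correction and leaving out each library were alternatives. The scripts' tests were checked on simulated data. Genes were named by size of change (of called protein-coding genes without overlap 10 each way by fold and 8 each way by CPM, and up to 4 called members per list, all with at least 5 CPM); genes outside this rule were picked with their values in view. The comparison and its 68 gene lists were chosen with earlier results of these data known. A few genes and 1 gene list are not reported here.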

Additional observations from a re-analysis of the deposited data

Results flagged for a closer look

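The response to docetaxel differed between the wild-type and the knockout-labelled line for 17 genes by edgeR's interaction test, and each difference is given as wild-type minus knockout-labelled log2 fold change. Among interferon-induced genes it was -1.40 for Ifi27, -1.59 for Lgals9, -1.22 for Sp100, -1.78 for Oas2 and -1.09 for Nlrc5. Among genes of amino acid supply it was -1.12 for Asns, -0.96 for Atf4, -0.72 for Slc7a5 and -0.76 for Slc1a4. Wild-type cells had the higher change for Clu (1.19), Ltf (1.55) and Nlrp10 (1.80). The microRNA loci gave -6.29 for Gm24270, -7.42 for Gm25911, -5.79 for Gm23935 and -2.75 for Gm24245, and Ppp1r14a gave -2.70. Within the wild-type DMSO group these 5 were highest in library 2, which was the richest in Gm23935. In the knockout-labelled line they had log2 fold changes of 1.26 to 3.84 and were highest in docetaxel library 3. The part of the Gm23935 content in the differences was not tested.

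Of the 17, Ifi27 was called under 22 of 22 alternatives, Asns under 20, Gm24270 under 21 of the 21 that tested it, and Ppp1r14a under 7.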

How the results depend on the processing

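The 4406 genes called in wild-type cells became 4935 with DESeq2, 4433 and 4442 with the other scalings, 4581 without a filter on low counts, 3274 in the 6 wild-type libraries alone, 5338 with a GC correction and 3035 to 4824 when single libraries were left out. The count of genes that fell ranged from 1412, without wild-type docetaxel library 1, to 2397 when single libraries were left out, and was 2494 with the GC correction. Leaving out together the library richest in Gm23935 of each line gave 3109 called genes, of which 1551 fell. That alternative was chosen after seeing the data. It removed DMSO library 2 of the wild type and docetaxel library 3 of the other line. The share of rises among calls stayed between 48.0% and 53.5% over all settings, and 2306 genes were called in the same direction in every alternative that tested them. Of 305 named genes that were called, 269 to 305 stayed called per setting and none of these changed sign; Cd3e, not called, was at -0.19 and went from -0.35, without wild-type DMSO library 2, to 0.10, without library 3. The 17 genes that differed between the lines became 165 with DESeq2, 421 without the filter and 39 with the GC correction. The count was 4 without the library richest in Gm23935 of each line, and 2 to 431 when single libraries were left out. The cause was not tested, and the 6 wild-type libraries alone cannot give this count. With a replicate block 4510 genes were called in wild-type cells and 48 for the difference. Same-numbered libraries correlated at 0.12, -0.40 and 0.06 in their deviations, and differently numbered ones at -0.58 to 0.57. Deviations from a mean of 3 libraries constrain each other, so these values cannot decide whether the numbers pair the cultures. The labels give no shared origin, and no libraries were treated as matched. Requiring 1 CPM in 3 libraries left 7 of 23 calls in the 2-cell-stage list and 3 of 6 in the prolactin list, since fewer of their genes were tested. How far depth limits those lists was not tested.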
